A study of Homo sapiens with 15 samples.

Results

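HMOX1, NQO1, GCLM, GCLC, TXNRD1, SRXN1 and OSGIN1 are classic targets of NRF2, the transcription factor of the antioxidant response. Their rows were selected by symbol, as those of the deposited table of normalized counts that carry these names. All 7 were found among its 59608 genes, and all 7 averaged at least 10 normalized counts, the limit for entering the tests, as did 13561 genes in all. RNA came from MDA-MB-231, a mesenchymal line from a human breast carcinoma, grown in 2D on 10 cm dishes and harvested after 6 h. Control dishes received 0.1% DMSO, and treated dishes received ZJ-101, a compound derived from a marine natural product, at 0.5, 5, 50 or 500 nM. Each of the 5 groups had 3 biological replicates, so that 15 libraries were compared, all of 1 line, 1 compound and 1 time. The DMSO content of the treated dishes is not given in the sources used here.

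In unstressed cells KEAP1, a sensor with reactive cysteines, presents NRF2 (gene NFE2L2) to a CUL3-RBX1 ubiquitin ligase, and the protein is degraded by the proteasome. Oxidants and electrophiles modify KEAP1, NRF2 accumulates, pairs with a small MAF protein and binds antioxidant response elements near its targets, from which BACH1 is displaced. The products make glutathione, reduce thioredoxin and peroxiredoxins, and detoxify quinones and heme. Control of NRF2 is largely at the level of the protein, which RNA counts do not measure.

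The libraries held 12415519 to 15284762 reads on genes, with a median of 13320354. Mitochondrial genes took 0.889% to 2.057% of the reads. Where sampling noise alone gives a chi-square of about 1 for each degree of freedom, replicate pairs gave 2.043 to 6.269, and the 2 pairs with 0.5 nM replicate 2 gave 11.125 and 16.547. This library stood apart from its group, and results that change without it are given both ways. VIM, CD44, AXL, CAV1 and LGALS1, mesenchymal markers of the line, summed to 54716 to 61415 normalized counts per library, although AXL rose to 1.16-fold and CD44 fell to 0.768-fold at 500 nM (limma adjusted p = 0.00059 and 1.4e-06). ESR1, the estrogen receptor, was at 0 in 10 libraries and reached 4.3 at most, PGR lay between 5.4 and 17.3, and the leukocyte gene PTPRC, at 0 in 5 libraries, reached 3.5. ERBB2 lay between 1136.3 and 1328.1, and the epithelial genes EPCAM and CDH1 between 266.0 and 320.2 and between 107.1 and 206.3, and GATA3 and the endothelial gene PECAM1 between 122.1 and 168.1 and between 200.8 and 321.4. Of these 8 genes, listed as markers that the line should lack, none was at 0 in every library. CDH1 averaged 195.8 normalized counts in DMSO and 113.1, 124.9, 168.5 and 134.6 at 0.5, 5, 50 and 500 nM. It fell at 0.5, 5 and 500 nM (limma adjusted p under 0.05), as did 0.922%, 1.71% and 10.1% of all tested genes.

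Promoter sequences are shown for the windows that held the motif searched below, which are those of GCLM and TXNRD1. The expression tests did not enter this choice. RefSeq promoter windows on GRCh38.p14, with 250 bases before and 50 after the start, were found for 6 of the 7 genes (7 windows, of which TXNRD1 has 2). HMOX1 had no window, so its promoter was not searched. The core of the antioxidant response element, TGACNNNGC, was searched on both strands. It was present in 3 of the 7 windows, which belong to GCLM and TXNRD1, and in 13.3% of the 35116 promoter windows searched. Windows on a chromosome that holds none of the 7 genes were left out of the search. The stretches below run from 150 bases before to 10 after the start on the gene's own strand, with each match in capitals.
GCLM promoter, chr1:93909421-93909580, minus strand: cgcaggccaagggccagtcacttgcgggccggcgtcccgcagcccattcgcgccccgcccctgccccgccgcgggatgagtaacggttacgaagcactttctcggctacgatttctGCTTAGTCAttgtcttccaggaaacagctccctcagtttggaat
TXNRD1 promoter, first window, chr12:104215629-104215788, plus strand: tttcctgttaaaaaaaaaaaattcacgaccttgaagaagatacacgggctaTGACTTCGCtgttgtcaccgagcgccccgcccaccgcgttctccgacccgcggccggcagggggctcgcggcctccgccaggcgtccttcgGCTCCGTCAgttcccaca
TXNRD1 promoter, second window, chr12:104286882-104287041, plus strand: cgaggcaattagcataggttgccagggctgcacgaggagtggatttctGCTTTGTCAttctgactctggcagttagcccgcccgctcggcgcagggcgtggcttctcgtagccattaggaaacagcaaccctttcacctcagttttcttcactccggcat

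In GCLM the match reads TGACTAAGC on the opposite strand and begins 34 bases before the start. The first TXNRD1 window holds TGACTTCGC on the gene's strand 99 bases before the start and TGACGGAGC on the opposite strand 8 bases before it, and the second holds TGACAAAGC on the opposite strand at 102 bases. Paired units of the heat-shock element, GAANNTTC or TTCNNGAA, were in 0 of the 7 windows and in 13.5% of the promoter windows searched. A match is a match of letters and does not show that a factor binds there, and these windows do not cover distal elements.

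At baseline the 7 genes spanned a wide range of expression. In DMSO, the normalized count per kilobase of the canonical transcript was 2252 ± 18.7 for TXNRD1, 1043 ± 30.4 for NQO1, 323 ± 16.2 for GCLM, 114 ± 4.91 for GCLC, 107 ± 5.64 for HMOX1, 63.5 ± 6.98 for OSGIN1 and 31.2 ± 2.66 for SRXN1 (mean ± SD, n = 3). GCLC and HMOX1 were neighbours whose 3 DMSO libraries overlapped, from 108.3 to 117.5 and from 100.8 to 112.0 per kilobase. Every other pair of neighbours in this order was separated in all DMSO libraries. All members but OSGIN1 and SRXN1 stayed within a factor of 1.31 over the 15 libraries. The highest library exceeded the lowest by a factor of 1.2 for NQO1, 1.24 for TXNRD1, 1.27 for GCLC, 1.28 for HMOX1, 1.31 for GCLM and 1.66 for OSGIN1. For SRXN1, the member with the fewest reads (22 to 94 per library), the factor was 5.29.

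**Figure D1:**
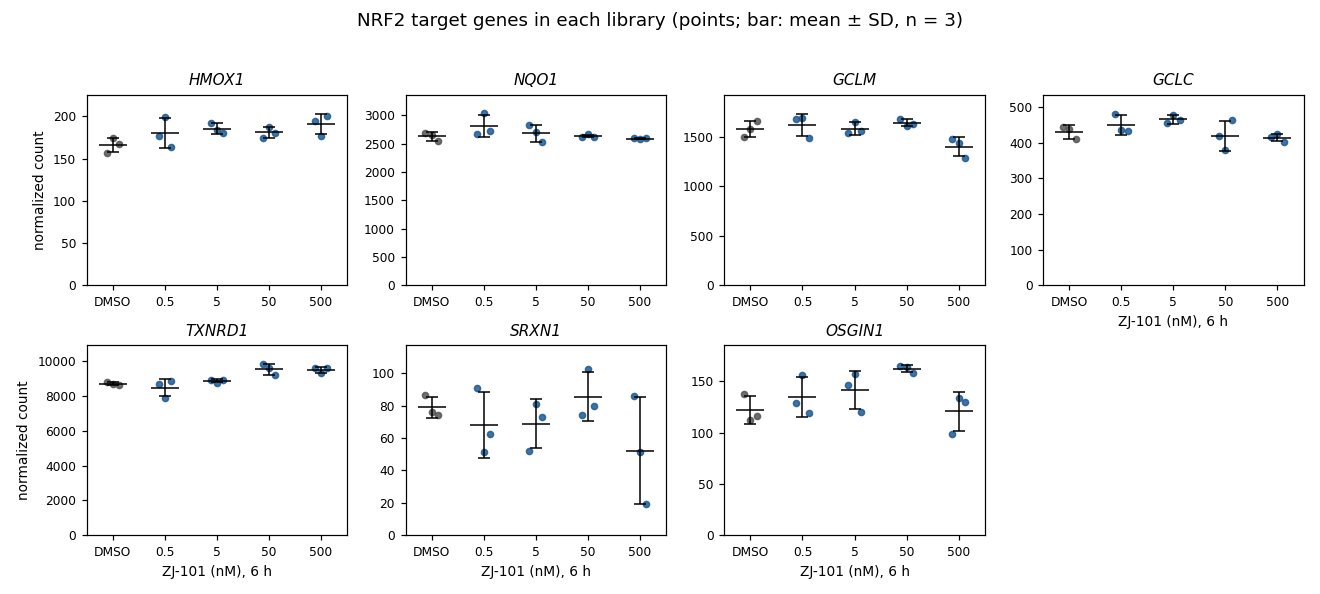
Normalized count (vertical axes, from 0) of the 7 NRF2 target genes in each of the 15 libraries, by group (DMSO and ZJ-101 at 0.5, 5, 50 and 500 nM for 6 h). Points are libraries and bars are mean ± SD (n = 3). NQO1 and GCLC stay near their DMSO level, and HMOX1 lies slightly above DMSO at 5, 50 and 500 nM. GCLM is lowest at 500 nM (1289.5 to 1477.8), TXNRD1 is highest at 50 and 500 nM, and OSGIN1 is highest at 50 nM. SRXN1 spreads from 19.4 to 85.6 at 500 nM.

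Each dose of ZJ-101 was compared with DMSO. No member passed the threshold against DMSO at any dose (limma with Benjamini-Hochberg adjustment over 13561 genes, adjusted p under 0.05). Over all tested genes, 1.17% passed at 0.5 nM, 2.18% at 5 nM, 6% at 50 nM and 17.8% at 500 nM. Members with an unadjusted p under 0.05 numbered 0 and 0 at the lower doses, 2 at 50 nM (OSGIN1 and TXNRD1) and 4 at 500 nM (HMOX1, GCLM, TXNRD1 and SRXN1), beside 14.7%, 12.9%, 17.4% and 29.3% of all genes. On the recovered reads, edgeR called 0 members at every dose, beside 0.996%, 2.4%, 6.05% and 17.9% of all genes in order of dose. DESeq2 called TXNRD1 at 50 and at 500 nM and no other member, beside 1.73%, 2.6%, 6.14% and 16.3%. Median log2 fold changes of the 7 genes were 0.06, 0.03, 0.11 and -0.02 in order of dose, beside -0.007, -0.000, -0.002 and 0.003 for all tested genes. The 4 comparisons share the DMSO libraries, so they are not independent of each other. As RNA was measured in bulk, fewer expressing cells and less RNA per cell cannot be told apart.

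The libraries of a dose lay wholly above those of DMSO for 0 members at 0.5 nM, beside 7.43% of all genes, and for HMOX1 and GCLC at 5 nM, beside 10.5%. At 50 nM this held for HMOX1, TXNRD1 and OSGIN1, beside 11.6%, and at 500 nM for HMOX1 and TXNRD1, beside 18.9%. No member lay wholly below DMSO at 0.5, 5 or 50 nM, beside 10.7%, 12.7% and 13.2% of all genes, and GCLM did so at 500 nM, beside 19.6%.

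**Figure D2:**
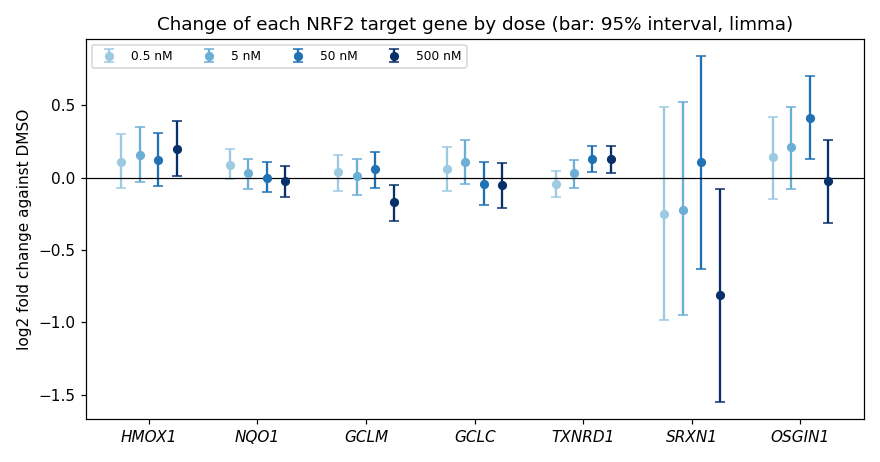
Log2 fold change against DMSO (vertical axis) of each NRF2 target gene at 0.5, 5, 50 and 500 nM ZJ-101, with the 95% interval of the limma fit as bars. The 4 doses share the DMSO libraries. Intervals are narrowest for TXNRD1, NQO1 and GCLM and widest for SRXN1, whose interval at 500 nM runs from -1.55 to -0.08.

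Glutathione synthesis was represented by both subunits of glutamate-cysteine ligase, the rate-limiting enzyme. GCLM, at 1:93885199-93909456 on the minus strand, encodes the modifier subunit, which raises the activity of the catalytic subunit. It had 1495.3, 1577.1 and 1653.7 normalized counts in DMSO, 1675.0, 1688.0 and 1490.5 at 0.5 nM, 1535.7, 1652.5 and 1556.5 at 5 nM, 1679.4, 1611.1 and 1632.7 at 50 nM, and 1477.8, 1432.1 and 1289.5 at 500 nM (replicates 1, 2 and 3). All libraries at 500 nM were below all other libraries, while the 3 lower doses overlapped DMSO. The share of all genes with such a separation was not counted. From 50 to 500 nM GCLM fell by 0.23 on the log2 scale (SE 0.059, 0.852-fold, 95% interval 0.781 to 0.929, limma adjusted p = 0.047), and edgeR and DESeq2 called this step as well, beside 2.25% and 2.59% of all genes. It was the 1 member past the threshold in this step, where 0.479% of all genes rose and 1.8% fell. The call held without 3 of the 15 libraries in turn (0.5 nM replicate 2, 0.5 nM replicate 3 or 500 nM replicate 1, adjusted p 0.017 to 0.041) and was lost without any of the other 12 (0.054 to 0.26), with the largest p without 500 nM replicate 3.

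Against DMSO, the difference of GCLM at 500 nM was -0.17 (SE 0.059, 0.888-fold, 95% interval 0.814 to 0.968, limma adjusted p = 0.054), and it passed the threshold without 0.5 nM replicate 2 (adjusted p = 0.028). It passed as well without 0.5 nM replicate 3 (0.03), without DMSO replicate 1 (0.045) and without 500 nM replicate 1 (0.037). At 0.5, 5 and 50 nM, the intervals for GCLM ran from 0.941 to 1.12-fold, from 0.921 to 1.1-fold and from 0.956 to 1.14-fold.

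GCLC, at 6:53497341-53616970 on the minus strand, encodes the catalytic subunit. Its normalized counts were 444.9, 438.0 and 409.9 in DMSO, 482.1, 435.5 and 434.0 at 0.5 nM, 455.1, 478.6 and 464.6 at 5 nM, 419.1, 378.8 and 463.7 at 50 nM, and 415.8, 424.8 and 403.6 at 500 nM. The libraries at 5 nM were the only ones that did not overlap DMSO, all higher, at 1.08-fold (0.974 to 1.2, limma adjusted p = 0.56). At 500 nM GCLC stood at 0.963-fold of DMSO (0.867 to 1.07, limma adjusted p = 0.68), and its step from 50 to 500 nM was -0.02 (log2, SE 0.072). Of its exon bases, 9.68% are shared with other annotated genes.

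The thioredoxin branch was represented by TXNRD1 and SRXN1. TXNRD1, at 12:104215779-104350307 on the plus strand, encodes cytosolic thioredoxin reductase, which uses NADPH to recharge thioredoxin. It was the most abundant member and showed the smallest errors. DMSO libraries held 8760.2, 8699.1 and 8616.5 normalized counts, those at 0.5 nM 8686.1, 7886.2 and 8839.4, and those at 5 nM 8886.1, 8751.0 and 8906.4. The count was 9791.9, 9596.6 and 9179.2 at 50 nM and 9565.0, 9279.4 and 9614.4 at 500 nM. All libraries of both higher doses were above all libraries of DMSO and of both lower doses. How many of all genes separate in this way was not counted. TXNRD1 rose with the rank of the dose by 0.04 per step on the log2 scale (SE 0.011, 1.03-fold, 95% interval 1.01 to 1.05, limma adjusted p = 0.011). It was the 1 member with a slope past the threshold, where 8.23% of all genes rose and 9.33% fell. The slope was also called by edgeR and DESeq2, which called 17.7% and 18.7% of all genes, and by limma without each library in turn (adjusted p 0.0043 to 0.033).

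Against DMSO, TXNRD1 was 1.1-fold at 50 nM (1.03 to 1.17, limma adjusted p = 0.091) and 1.09-fold at 500 nM (1.02 to 1.16, limma adjusted p = 0.054). With DESeq2 on the recovered reads the adjusted p was 0.037 and 0.024. Without 0.5 nM replicate 2, which held the lowest TXNRD1 count of all libraries, limma gave 0.013 and 0.0079. Without 0.5 nM replicate 3 the adjusted p at 500 nM was 0.04. The step from 5 to 50 nM was 1.08-fold (1.01 to 1.15, limma adjusted p = 0.21) and that from 50 to 500 nM 0.996-fold (0.935 to 1.06), so that the counts at the 2 higher doses were not separated.

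SRXN1, at 20:646615-653200 on the minus strand, encodes sulfiredoxin, which repairs overoxidized peroxiredoxins. Its normalized counts were 86.5, 75.9 and 74.1 in DMSO, 90.7, 51.1 and 62.6 at 0.5 nM, 52.0, 81.1 and 73.1 at 5 nM, 74.1, 102.6 and 79.8 at 50 nM, and 85.6, 51.6 and 19.4 at 500 nM. Each dose overlapped DMSO, and at 500 nM the 3 dishes ranged from a DMSO-like count to the lowest count of the series. The fitted difference at 500 nM was -0.81 (log2, SE 0.35, limma adjusted p = 0.12), with an interval from 0.342 to 0.946-fold. It was -0.24 without 500 nM replicate 3 and -1.28 without 500 nM replicate 1, where it passed the threshold (adjusted p = 0.0087). The step from 50 to 500 nM was -0.92 (SE 0.35, limma adjusted p = 0.24), and without 500 nM replicate 1 it was -1.39 (adjusted p = 0.026). SRXN1 shares 2292 of its 2528 exon bases (90.7%) with an overlapping transcript gene on the same strand that has no symbol, so reads of the 2 genes can be dropped or split in counting and its level is uncertain.

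Detoxification of quinones and heme was represented by NQO1 and HMOX1. NQO1, at 16:69706996-69726668 on the minus strand, encodes a quinone reductase that is widely used as a readout of NRF2 activity. It had 2690.7, 2654.5 and 2543.5 normalized counts in DMSO, 2676.3, 3037.5 and 2718.1 at 0.5 nM, 2823.4, 2706.9 and 2524.8 at 5 nM, 2625.0, 2664.4 and 2622.9 at 50 nM, and 2600.9, 2577.0 and 2595.7 at 500 nM. Every dose overlapped DMSO. The difference from DMSO was 1.07-fold at 0.5 nM (0.992 to 1.15), 1.02-fold at 5 nM (0.949 to 1.1), 1-fold at 50 nM (0.933 to 1.08) and 0.986-fold at 500 nM (0.916 to 1.06, limma adjusted p = 0.84). An unnamed gene on the opposite strand covers 19.4% of its exon bases, and whether the counting used strand is not given in the sources used here.

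HMOX1, at 22:35380361-35394214 on the plus strand, encodes heme oxygenase 1, which cleaves heme and answers to heat-shock factors and BACH1 as well as to NRF2. Counts were 156.6, 174.0 and 167.4 in DMSO, 177.2, 199.2 and 164.2 at 0.5 nM, 192.4, 183.6 and 180.3 at 5 nM, 174.1, 187.7 and 180.8 at 50 nM, and 194.7, 177.0 and 200.5 at 500 nM. The libraries at 5, 50 and 500 nM were all above those of DMSO, by a small margin. At 500 nM HMOX1 stood at 1.15-fold of DMSO (1.01 to 1.31, limma adjusted p = 0.15), and its slope on the dose rank was 0.04 per step (SE 0.019, limma adjusted p = 0.17). A difference larger than 1.31-fold lay outside the interval at this dose.

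OSGIN1, at 16:83931311-83966332 on the plus strand, encodes an oxidative stress induced growth inhibitor. It had 137.4, 112.3 and 116.7 normalized counts in DMSO, 128.8, 156.2 and 119.2 at 0.5 nM, 146.8, 156.9 and 120.5 at 5 nM, 164.4, 163.7 and 158.5 at 50 nM, and 98.9, 133.5 and 129.8 at 500 nM. The 3 libraries at 50 nM were the 3 highest of all groups, whereas those at 500 nM overlapped DMSO. No share of all genes was counted for this pattern. At 50 nM OSGIN1 was 1.33-fold of DMSO (1.09 to 1.62, limma adjusted p = 0.086), with an adjusted p of 0.044 without 0.5 nM replicate 2. The step from 50 to 500 nM was 0.739-fold (0.607 to 0.901, limma adjusted p = 0.12), with an adjusted p of 0.053 to 0.45 when libraries were left out in turn. At 500 nM it stood at 0.984-fold of DMSO (0.808 to 1.2). OSGIN1 shares 8.22% of its exon bases with MLYCD, a gene on the same strand.

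The steps between neighbouring doses do not use DMSO as a reference. Between 0.5 and 5 nM, 0 of the 7 members passed the threshold by limma, edgeR or DESeq2, beside 0.118%, 0.125% and 0.214% of all genes, and 0 members had an unadjusted p under 0.05, beside 7.96%. Between 5 and 50 nM, 0 members passed, beside 5.01%, 4.94% and 4.96% of all genes by the same tools, and 2 (GCLC and TXNRD1) had an unadjusted p under 0.05, beside 17.6%. From 50 to 500 nM, 6 of 7 fitted differences were below 0 and 1, HMOX1, was above 0 (0.07), with a median of -0.03 beside 0.003 for all genes, and 3 members (GCLM, SRXN1 and OSGIN1) had an unadjusted p under 0.05, beside 13.1% of all genes. GCLM passed the threshold in this step as given above.

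The RNA of NRF2 itself fell at 5, 50 and 500 nM. NFE2L2 had 1822.0, 1790.6 and 1767.3 normalized counts in DMSO, 1581.3, 1723.0 and 1596.1 at 0.5 nM, 1518.4, 1607.9 and 1569.9 at 5 nM, 1569.8, 1570.7 and 1546.5 at 50 nM, and 1424.8, 1479.7 and 1473.2 at 500 nM. All treated libraries were below all DMSO libraries, and those at 500 nM were below all others. Taken dose by dose, 10.7%, 12.7%, 13.2% and 19.6% of all genes lay wholly below DMSO. The share for all doses together was not counted. NFE2L2 did not pass at 0.5 nM (0.91-fold, 0.855 to 0.969, limma adjusted p = 0.15) and fell at 5 nM to 0.873-fold (0.82 to 0.93, adjusted p = 0.02), at 50 nM to 0.871-fold (0.818 to 0.928, adjusted p = 0.0069) and at 500 nM to 0.814-fold (0.764 to 0.867, adjusted p = 6.1e-05). The call at 500 nM held without each library in turn.

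**Figure D3:**
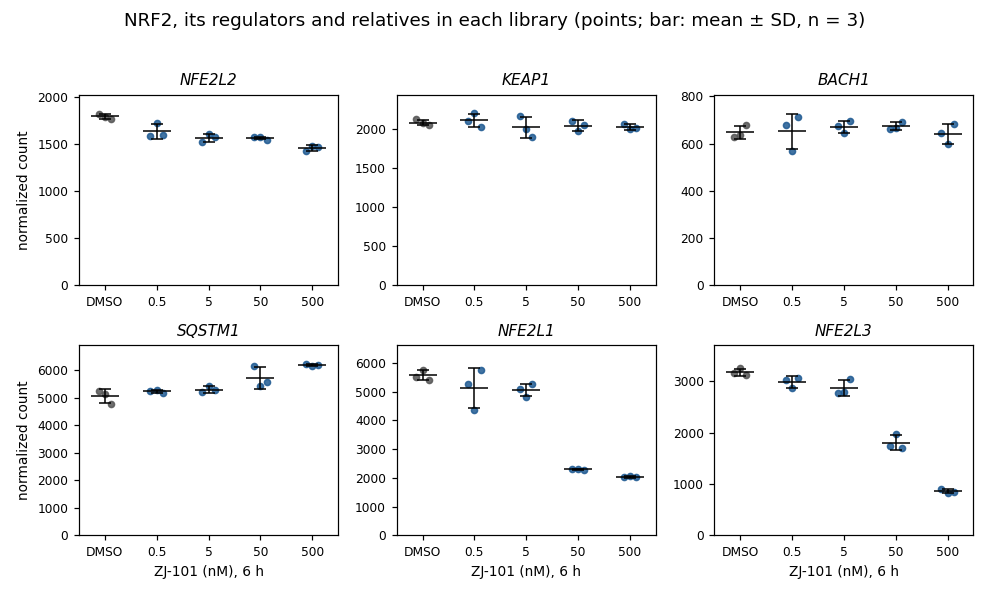
Normalized count (vertical axes, from 0) of NFE2L2, its regulators KEAP1, BACH1 and SQSTM1, and its relatives NFE2L1 and NFE2L3 in each of the 15 libraries, by group. Points are libraries and bars are mean ± SD (n = 3). NFE2L2 is below all DMSO libraries in each treated library, KEAP1 and BACH1 overlap DMSO at every dose, and SQSTM1 lies at 6138.1 to 6210.9 at 500 nM, above all DMSO libraries.

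Of 12 genes for NRF2 and its regulators and partners, 1 rose and 3 fell at 500 nM, beside 7.69% and 10.1% of all genes. KEAP1, the sensor, had 2119.9, 2067.8 and 2050.4 normalized counts in DMSO and 2061.8, 1992.4 and 2004.8 at 500 nM, at 0.971-fold (0.904 to 1.04, limma adjusted p = 0.63). BACH1, the repressor that competes for antioxidant response elements, stood at 0.988-fold (0.888 to 1.1, limma adjusted p = 0.91). The small MAF partners MAFF, MAFG and MAFK stood at 0.991, 0.992 and 1.03-fold, with intervals within 0.913 to 1.15-fold. SQSTM1 (p62), an autophagy receptor that binds KEAP1 and is itself an NRF2 target, had 5235.4, 5139.1 and 4753.1 normalized counts in DMSO, 6156.9, 5406.3 and 5582.0 at 50 nM, and 6210.9, 6138.1 and 6192.1 at 500 nM. It rose to 1.13-fold at 50 nM (1.06 to 1.21, limma adjusted p = 0.029) and to 1.23-fold at 500 nM (1.14 to 1.31, limma adjusted p = 0.0002), with all libraries of both doses above DMSO. At these doses 11.6% and 18.9% of all genes lay wholly above DMSO.

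The relatives of NRF2 that bind the same elements showed larger differences. NFE2L1 (NRF1), which controls proteasome genes, fell to 0.413-fold at 50 nM (0.374 to 0.456) and to 0.367-fold at 500 nM (0.333 to 0.406, limma adjusted p = 3.8e-11), and NFE2L3 (NRF3) fell to 0.568-fold and 0.27-fold (0.249 to 0.293 at 500 nM, limma adjusted p = 1.5e-13), although a pseudogene, NFE2L3P1, is near-identical to NFE2L3.

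A wider list of 38 other NRF2 targets was read beside the 7 members, and 37 of these had enough counts to test (GPX2 did not). At 0.5 nM 1 rose and 0 fell, beside 0.251% and 0.922% of all genes, and at 5 nM 0 rose and 1 fell, beside 0.465% and 1.71%. At 50 nM 2 rose and 2 fell, beside 2.29% and 3.71%, and at 500 nM 3 rose and 2 fell, beside 7.69% and 10.1%. The median log2 fold change of the 37 genes at 500 nM was -0.01, and that of all genes was 0.003.

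Among 8 tested glutathione genes, 2 rose at 500 nM and 0 fell, beside 7.69% and 10.1% of all genes, and the median was 0.23 (log2), beside 0.003 for all genes. SLC7A11, the cystine transporter subunit that supplies cysteine for glutathione, had 511.2, 475.5 and 491.0 normalized counts in DMSO and 680.8, 693.8 and 615.6 at 500 nM. Its libraries lay above DMSO at every dose, beside 7.43%, 10.5%, 11.6% and 18.9% of all genes in order of dose. SLC7A11 rose to 1.29-fold at 50 nM (1.16 to 1.44, limma adjusted p = 0.0029) and 1.34-fold at 500 nM (1.21 to 1.49, limma adjusted p = 0.00032). SLC7A11 is also a target of ATF4, and its heavy-chain partner SLC3A2 rose to 4.23-fold at 500 nM (3.83 to 4.66, limma adjusted p = 1.8e-13). In a list of 10 tested genes of the ATF4 response, which includes ATF4 and leaves out SLC7A11, SLC3A2 was the 1 that rose and DDIT4 the 1 that fell (to 0.711-fold, limma adjusted p = 0.00013), beside 7.69% and 10.1% of all genes. The cause of the SLC7A11 rise was not tested. ABCC3, an efflux pump for organic anions and glucuronides, had 654.4, 677.8 and 688.9 normalized counts in DMSO and 796.0, 970.9 and 844.3 at 500 nM, where it rose to 1.29-fold (1.16 to 1.43, limma adjusted p = 0.0017).

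Of TXN, PRDX1 and PRDX6, the thioredoxin targets that work with TXNRD1 and SRXN1, 0 passed at any dose. Beside them, 1.17%, 2.18%, 6% and 17.8% of all genes passed in order of dose. At 500 nM their differences were 0.03 to 0.12 (log2), and 1 had an unadjusted p under 0.05, beside 29.3% of all genes. Of 6 NADPH genes, 0 rose and 1 fell at 500 nM, beside 7.69% and 10.1% of all genes. This was IDH1, the cytosolic isocitrate dehydrogenase, which had 1035.0, 1060.2 and 1103.8 normalized counts in DMSO and 854.1, 916.3 and 872.6 at 500 nM (0.826-fold, 0.766 to 0.891, limma adjusted p = 0.00088), and which also fell at 5 nM (adjusted p = 0.024) and 50 nM (adjusted p = 0.021). PGD, TALDO1, TKT and ME1, enzymes of the pentose phosphate pathway and malic enzyme, lay between -0.06 and 0.03 (log2) at 500 nM, and none passed.

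Of 13 detoxification genes, 1 rose and 1 fell at 500 nM, near the 7.69% and 10.1% of all genes. TRIM16, which binds NRF2 and KEAP1, rose to 1.29-fold (1.16 to 1.43, limma adjusted p = 0.0012), with 281.6, 263.0 and 266.8 normalized counts in DMSO and 347.5, 353.0 and 345.3 at 500 nM. The near-identical gene TRIM16L stood at 1.12-fold (1 to 1.25, limma adjusted p = 0.17), and reads of the pair may be divided between them. UGDH, which makes UDP-glucuronate, fell to 0.855-fold (0.801 to 0.912, limma adjusted p = 0.0012), from 1756.2 to 1860.4 normalized counts in DMSO to 1524.2 to 1581.8 at 500 nM. The aldo-keto reductases AKR1B10, AKR1C1, AKR1C2 and AKR1C3 are among the most NRF2-responsive genes in human cells. Their differences at 500 nM were 0.11, -0.09, -0.72 and -0.30 (log2), and none passed (limma adjusted p = 0.88, 0.84, 0.39 and 0.057). In DMSO these genes averaged 16.99, 34.15, 17.19 and 198.4 normalized counts. The first 3 lay near the limit of 10 for testing, so their tests could miss changes. AKR1B1, with far more reads, averaged 3128 in DMSO and 3111 at 500 nM and did not pass either.

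Of 7 heme and iron genes, 0 passed at 500 nM by limma, beside 17.8% of all genes, and 3 had an unadjusted p under 0.05, beside 29.3%. FTL, the ferritin light chain, is named here after its values were seen, as the only target that passed at 0.5 nM, where it was 1.19-fold (1.09 to 1.3, limma adjusted p = 0.045), a call that held without 0.5 nM replicate 3 or 50 nM replicate 2 and was lost without any of the other 13 libraries. It stood at 1.11-fold at 500 nM (1.02 to 1.21, limma adjusted p = 0.094), and its pseudogene FTLP3 is near-identical. Antioxidant enzymes that were not listed as NRF2 targets gave 0 rises and 3 falls among 16 at 500 nM, beside 7.69% and 10.1% of all genes. The falls were those of PRDX4, the peroxiredoxin of the endoplasmic reticulum (0.736-fold, limma adjusted p = 0.0002), SOD2, the mitochondrial superoxide dismutase (0.86-fold, limma adjusted p = 0.002), and the glutaredoxin GLRX (0.833-fold, limma adjusted p = 0.0087).

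**Figure D4:**
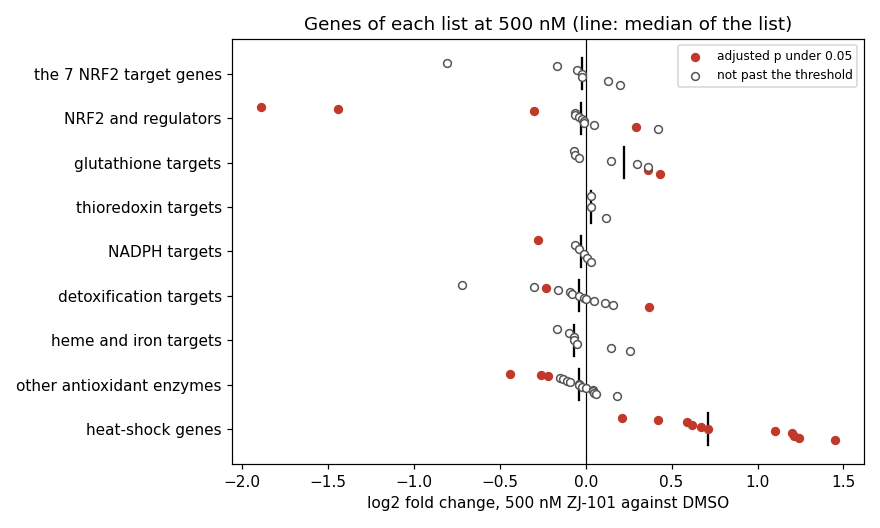
Log2 fold change at 500 nM ZJ-101 against DMSO (horizontal axis) of each tested gene in 9 lists (vertical axis). Filled points have a limma adjusted p under 0.05 and open points do not, and the line is the median of the list. The 7 NRF2 target genes hold 0 filled points and the heat-shock genes 11 of 11, with medians of -0.02 and 0.71. Of all tested genes, 17.8% passed this threshold. All lists were chosen with earlier results of these data known.

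For comparison, in the same libraries all 11 genes of a heat-shock list rose at 500 nM, beside 7.69% of all genes. Their median was 0.71 (log2), with values from 0.21 for BAG3 to 1.45 for HSPH1. At 50 nM all 11 rose as well, with a median of 0.56, beside 2.29% of all genes. This list was chosen with earlier results of these data known, so the rise of all 11 is no independent finding. Of 6 tested metallothionein and zinc genes, 1 passed at 500 nM, beside 17.8% of all genes. This was MT1F, a metallothionein with few reads, which fell to 0.508-fold (0.316 to 0.815, limma adjusted p = 0.044). The difference between these lists and the 7 NRF2 targets was not tested.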

How the data were processed

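Gene expression was measured in 15 libraries of poly-A RNA. The deposited signal values are normalized counts, which the authors made with HISAT2 (alignment of read pairs to hg38), htseq-count (reads per gene) and the size factors of DESeq2. Tool versions, the GENCODE release and strandedness are not given in the sources used here. One line that names no gene was left out. Dividing by each library's smallest step gave whole reads for 100.0% of values (tolerance 0.001), with size factors of 0.9162 to 1.1323.

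The main test was limma with a variance trend on log2(normalized count + 1), a scale on which fold changes of low genes come out too small. Genes with a mean of at least 10 were tested with all 5 groups in 1 fit (10 residual degrees of freedom), for each dose against DMSO and each step between doses. A second fit gave the slope on dose rank (0 for DMSO to 4). P-values were adjusted over all tested genes (Benjamini-Hochberg, 0.05). The script was tested on simulated data. At 500 nM limma recovered 63.6% of genes with a simulated log2 fold change of 0.5 in size, and 84.7% of those with 1. Recovery of smaller changes was not measured. Alternatives were edgeR and DESeq2 on the recovered reads, other pseudocounts, filters, scalings and thresholds, the replicate block, the 6 libraries of a comparison alone, and each library left out. Intervals are 95% intervals of the fit.

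The 7 members and all lists were chosen with earlier results of these data known. Named genes are the members, NFE2L2, KEAP1, BACH1 and the small MAF genes, and in each other list up to 3 rises and 3 falls with the smallest p at 500 nM. The thioredoxin, pentose phosphate, malic enzyme and aldo-keto reductase genes that passed no test, TRIM16L, FTL and BAG3 lie outside this rule and are named with their values known. Genes with a profile like that of a member were to be named for members past the threshold at 500 nM, of which there were 0. Positions, lengths and overlaps are from GENCODE release 44 on GRCh38, and promoters are from RefSeq. Near-identical genes cover at least 50% of a transcript at 95% identity (minimap2 2.31-r1302). Python 3.11.15 and R 4.3.3 were used, with DESeq2 1.42.0, edgeR 4.0.16 and limma 3.58.1.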

Additional observations from a re-analysis of the deposited data

How the results depend on the processing

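At 0.5 and 5 nM and in the steps from 0.5 to 5 and from 5 to 50 nM, 0 members passed under each of 27 alternatives. At 50 nM, 0 members passed in the main test, 1 with DESeq2 (TXNRD1) and 2 with only the 6 libraries or an adjusted p under 0.1 (OSGIN1 and TXNRD1), and 0 to 2 when 1 library was left out. At 500 nM, 0 passed in the main test, 1 with DESeq2 (TXNRD1), 2 with a mean of at least 50, with only the 6 libraries and with an adjusted p under 0.1 (GCLM and TXNRD1 each time), and 0 to 2 without 1 library. In the step from 50 to 500 nM, 1 passed in the main test, 0 with no filter on low values, with TMM scaling or with a log2 fold change of 1 or more in size, and 0 to 2 without 1 library. The slope gave 1 member in the main test and without each library, and 0 with a slope of at least 0.25. Same-numbered replicates did not deviate together (30 correlations of -0.085 to 0.096, 0 over 0.1), so the numbers were not taken as pairs. With the replicate number as a block, 2 members passed at 500 nM (GCLM, adjusted p = 0.049, and TXNRD1, adjusted p = 0.048), and no other member count changed.

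Of the 37 other targets, 1 passed at 0.5 nM in the main test, 0 with no filter, only the 6 libraries or a log2 fold change of at least 1, 2 with a mean of at least 50, the same total per library, DESeq2 or an adjusted p under 0.1, and 0 to 4 without 1 library (4 without 0.5 nM replicate 3, and 0 without 12 of the 15). At 5 nM, 1 passed in the main test, 0 with no filter or a log2 fold change of at least 1, 2 with DESeq2 or an adjusted p under 0.1, 4 with only the 6 libraries, and 0 to 2 without 1 library (0 without any DMSO or 5 nM library, and 2 without 0.5 nM replicate 2 or 3). At 50 nM, 4 passed in the main test, 2 with no filter, 0 with a log2 fold change of at least 1, and 1 to 5 without 1 library (1 without DMSO replicate 3 or 50 nM replicate 3, and 2 without DMSO replicate 2 or 50 nM replicate 1). At 500 nM, 5 passed in the main test, 8 with only the 6 libraries, 9 with an adjusted p under 0.1, 0 with a log2 fold change of at least 1, and 5 to 9 without 1 library, the 9 without 0.5 nM replicate 2. The difference of OSGIN1 at 500 nM, -0.02 (log2), turned to 0.06 without DMSO replicate 1 and 0.11 without 500 nM replicate 1, in a range of -0.10 to 0.11 without 1 library. The cause was not tested. SRXN1 had the fewest reads of the members, 22 to 94 per library, and its level is uncertain for the shared exon bases as well.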
